A study of Mus musculus with 8 samples.

Results

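The enzymes, transporters and regulators by which the liver breaks down glucose, makes it anew and stores it as glycogen were examined in fasted mouse livers. The set held 36 genes chosen by name: 19 glycolytic, 6 gluconeogenic and 11 glycogen genes. Each gene was read from the probe sets that name it alone, taking the one with the highest mean over the 8 arrays. In all 32 of the 36 genes had such a probe set (15 glycolytic, 6 gluconeogenic and 11 glycogen), among 19938 genes measured in the series. The other four, Gpi1, Pfkfb1, Eno1 and Gapdh, had none under this rule.

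Livers of C57BL6 mice were each hybridised to an Affymetrix Mouse Gene 1.0 ST array, a platform with 1 colour. The control group (4 arrays) came from mice fasted for 17 h, with the same 7 weeks of age at the start in its labels. The hydrogen water group (4 arrays) came from mice that had drunk water with dissolved molecular hydrogen for 4 weeks, starting at 7 weeks of age, and had then been fasted for 17 h as well. The labels carry the same treatment wording on every sample, so groups were read from the titles (Cont and H), and what the control mice drank is not stated. No fed group was included in these 8 arrays, so the levels below are levels after fasting and carry no fed reference. The labels do not say outright that every array is a separate animal. If some are not, the p-values speak only of how far these samples scatter.

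Glycolysis splits glucose to pyruvate and gluconeogenesis runs the opposite way from lactate, amino acids and glycerol. The paths share their reversible enzymes and differ at a few one-way steps, where separate enzymes work in each direction. Between meals the liver first breaks down glycogen and then relies on gluconeogenesis, under glucagon, glucocorticoids and falling insulin. After feeding, pyruvate kinase and glycogen synthase help turn the flow towards storage.

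Promoter stretches of 3 members are shown because they hold the elements through which textbook fasting and feeding signals reach these genes. Each is the 250 bases before a RefSeq transcription start (GRCm38.p6), on the plus strand, with the element in capitals. In Pck1 (chr2:173152823-173153072) and G6pc (chr11:101367466-101367715) the capitals mark TTACGTNA, the form of the cAMP response element found there. In Pklr (chr3:89136373-89136622, the start of the liver form) they mark the half-sites CACG and CGTG with the 9 bases between them, its carbohydrate response element.
Pck1: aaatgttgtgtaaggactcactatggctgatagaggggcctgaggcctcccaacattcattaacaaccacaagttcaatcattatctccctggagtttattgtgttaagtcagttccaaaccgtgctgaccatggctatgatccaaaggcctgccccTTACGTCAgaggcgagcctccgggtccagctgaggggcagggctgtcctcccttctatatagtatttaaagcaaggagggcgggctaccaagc
G6pc: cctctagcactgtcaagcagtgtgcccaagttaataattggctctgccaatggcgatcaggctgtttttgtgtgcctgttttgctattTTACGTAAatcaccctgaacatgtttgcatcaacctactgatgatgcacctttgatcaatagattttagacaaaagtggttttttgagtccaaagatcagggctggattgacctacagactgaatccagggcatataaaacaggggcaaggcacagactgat
Pklr: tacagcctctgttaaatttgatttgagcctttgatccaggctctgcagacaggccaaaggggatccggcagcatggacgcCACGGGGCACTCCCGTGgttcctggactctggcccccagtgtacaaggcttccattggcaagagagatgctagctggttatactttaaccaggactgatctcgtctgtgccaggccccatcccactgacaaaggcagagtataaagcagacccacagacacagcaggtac

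The element began 93 bases before the start in Pck1, 162 in G6pc and 170 in Pklr. Both strands were searched, and the motifs were chosen after the member promoters had been read. Of the 32 members 31 had a promoter in the table, with 43 windows in all. TTACGTNA was found in the windows of Pck1 and G6pc and in 0.788% of all 32851 windows. The palindromic cAMP response element TGACGTCA was found in Ldha and in 1.55% of all windows. These half-sites at that distance were found in Pklr and in 0.219% of all windows. A match is a description of the letters and no measure of binding.

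No gene passed the test between the groups. Of 19938 genes tested with limma, 0 (0%) had a Benjamini-Hochberg adjusted p under 0.05, and so did 0 of the 32 members. An unadjusted p under 0.05 was reached by 1429 genes, or 7.17%, of which 718 (3.6%) were higher and 711 (3.57%) lower with hydrogen water. Of the members, 4 of 32 (12.5%) had an unadjusted p under 0.05: Pfkfb2, Aldoa and Gys2, with higher means in the hydrogen water group, and Phkg2, with a lower one. Of the 9969 genes above the median gene level, where most members lay, 947 (9.5%) had such a p. After centring of every array on its median the split over all genes was 421 higher and 1177 lower, and with quantile normalization 588 and 1179. The median of all genes moved by −0.04 in both. The members split 3 and 1 with quantile normalization, where 8.86% of all genes had such a p, and 2 and 2 with centring (8.01% of all genes), where Aldoa left and Gbe1 joined those with a p under 0.05. The groups did not overlap in 0 of the 32 members, against 750 genes (3.76%) over the array. Below, a difference is the mean log2 signal with hydrogen water minus that of the controls. Values of 4 arrays follow the replicate numbers of the titles. Probe sets differ in how strongly they respond, so signals are not compared between genes. After the fast 30 of the 32 members lay above the median gene level of 5.87, or 29 with Hk1 read from the probe set of its RefSeq transcripts.

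**Figure D1:**
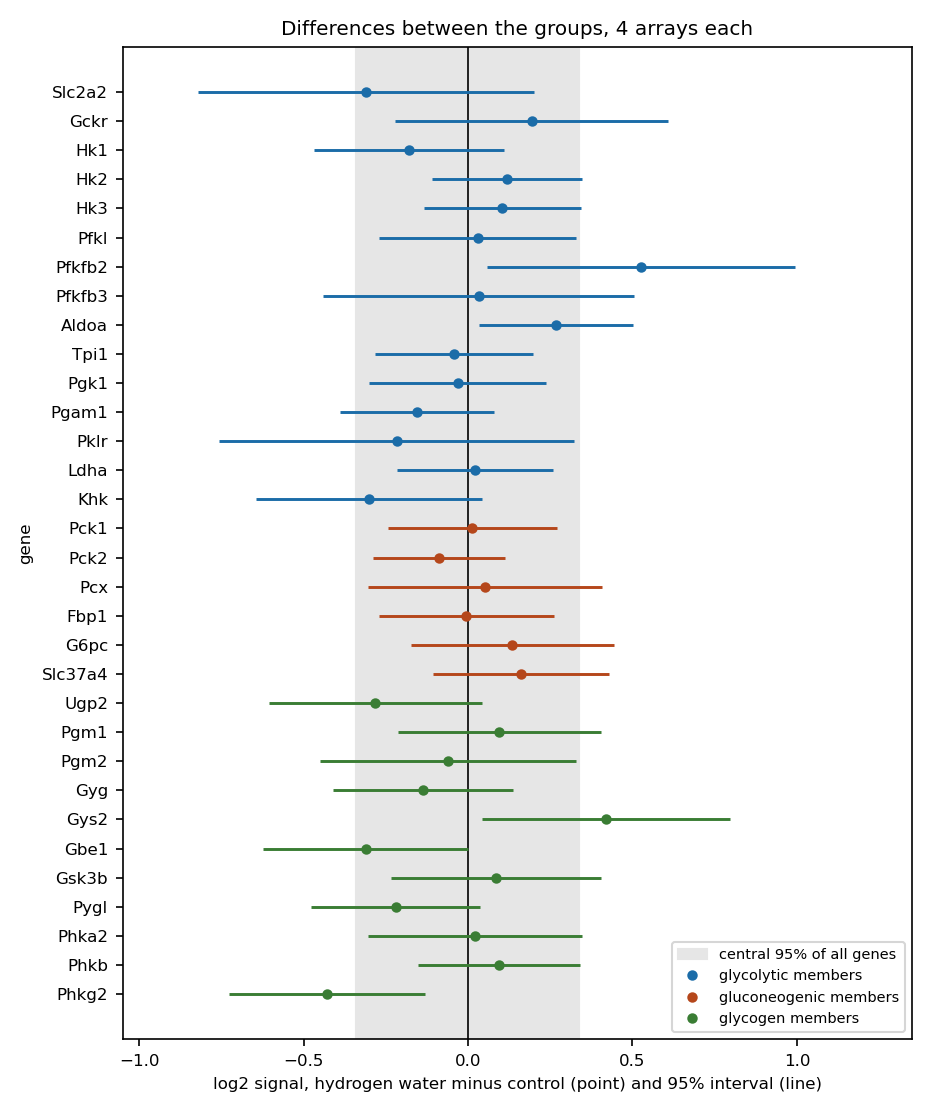
Difference in log2 signal between hydrogen water and control for each of the 32 members, with its 95% interval from limma (4 arrays per group), by role; the grey band holds the central 95% of the differences of all 19938 genes. The intervals of Pfkfb2, Aldoa, Gys2 and Phkg2 leave out 0, and the 6 gluconeogenic differences lie between −0.09 and 0.16.

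Of the 15 glycolytic members 8 were higher and 7 lower with hydrogen water, with a median difference of 0.02, against −0.00 over all genes. After centring of every array on its median 5 of the 15 were higher and their median was −0.02. Over all genes 37.9% were then higher and the median was −0.04. Sugar entry is represented by Slc2a2, the glucose transporter GLUT2 of the hepatocyte membrane. It stood at 11.31, 10.62, 10.59 and 10.66 on the controls and at 10.17, 9.94, 10.95 and 10.88 with hydrogen water. Control 1 was the highest of all arrays, and the hydrogen water arrays lay on both sides of the other 3 controls. The difference was −0.31 (SE 0.23, 95% interval −0.82 to 0.20). Gckr, a regulatory protein of glucose phosphorylation in hepatocytes, ranged from 9.11 to 9.77 on the controls and from 9.02 to 9.91 with hydrogen water, a difference of 0.19 (SE 0.19). Khk, which phosphorylates fructose, stood at 10.71 ± 0.35 (SD, n = 4) in controls and 10.41 ± 0.11 (SD, n = 4) with hydrogen water. Its groups overlapped because control 3, at 10.23, lay below every hydrogen water array.

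The hexokinases with high glucose affinity are the forms of most tissues other than hepatocytes. Hk2 and Hk3 were dim, below the median gene level. Hk2 lay between 4.27 and 4.63 on the controls and between 4.56 and 4.68 with hydrogen water, and Hk3 between 4.80 and 5.07 and between 4.86 and 5.20. Their differences were 0.12 (SE 0.10) and 0.10 (SE 0.11).

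Hk1, the widely expressed hexokinase, had a pair of probe sets that went opposite ways. The brighter one, which the rule takes (transcript cluster 10414661), lists 1 accession and no RefSeq transcript. It stood at 12.38, 12.36, 11.88 and 12.30 on the controls and at 12.04, 12.27, 11.99 and 11.91 with hydrogen water. The difference was −0.18 (SE 0.13). A further 16 probe sets list Hk1 together with the ribosomal protein gene Rpl17. Their means lay between 10.90 and 12.74, and 16 of 16 were lower with hydrogen water, by −0.33 to −0.06. The other probe set (transcript cluster 10369541) lists the RefSeq transcripts of Hk1. It read 5.14, 5.18, 4.71 and 4.98 on the controls and 5.26, 5.54, 5.49 and 5.34 with hydrogen water. All 4 hydrogen water arrays lay above all 4 controls there, by a mean of 0.40 (SE 0.12, 95% interval 0.13 to 0.67). With this probe set in place of the brighter one, limma gave Hk1 an unadjusted p of 0.00747 and an adjusted p of 0.637. That exchange was made after the values were seen. It brings the members at an unadjusted p under 0.05 to 5 and those whose groups do not overlap to 1, against the 7.17% and 3.76% over the array. The value carried by the brighter probe set is therefore given here as that of its probe set and not as the level of Hk1.

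Among the enzymes around the phosphofructokinase step, Pfkfb2 had the largest difference of the glycolytic members, and Pfkfb1 was not measured. Pfkfb2 makes and removes a fructose bisphosphate that switches phosphofructokinase on and is a different isomer from the one phosphofructokinase makes. Of its family it is the form best known from heart. It stood at 7.92, 8.07, 8.38 and 8.16 on the controls and at 8.43, 8.21, 8.59 and 9.40 with hydrogen water. Hydrogen water 4 was well above the rest, and hydrogen water 2 lay within the control range. The means were 8.13 ± 0.19 (SD, n = 4) and 8.66 ± 0.52 (SD, n = 4), and they differed by 0.53 (SE 0.21, 95% interval 0.06 to 1.00, limma adjusted p = 0.687). Without hydrogen water 4 the difference was 0.28 (limma unadjusted p = 0.0674). Pfkfb3, the inducible form of the same enzyme, stood at 6.36, 6.83, 6.36 and 5.65 on the controls and at 6.34, 5.96, 6.41 and 6.62 with hydrogen water, a difference of 0.03 (SE 0.22). Control 2 was its highest and control 4 its lowest array, so the controls spanned the whole hydrogen water group. Pfkl, the liver subunit of phosphofructokinase itself, stood at 8.30, 7.88, 7.63 and 7.95 and at 8.07, 7.81, 7.99 and 8.002. The controls again spanned the hydrogen water group, and the difference was 0.03 (SE 0.14, 95% interval −0.27 to 0.33).

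Of the reversible enzymes shared by both directions, Aldoa was the one at an unadjusted p under 0.05. It is the aldolase of muscle and many other tissues and splits the fructose bisphosphate made by phosphofructokinase into triose phosphates. Aldoa stood at 10.86, 10.99, 10.70 and 10.84 on the controls and at 11.22, 10.93, 11.11 and 11.20 with hydrogen water. Hydrogen water 2 lay below control 2, and the other 3 hydrogen water arrays lay above all controls. The difference was 0.27 (SE 0.11, 95% interval 0.03 to 0.50, limma adjusted p = 0.687). With quantile normalization the groups of Aldoa no longer overlapped (0.30, limma adjusted p = 0.524), and after centring of every array on its median the difference was 0.23 (limma unadjusted p = 0.0642). Tpi1, Pgk1 and Pgam1, the isomerase, kinase and mutase of the triose steps, differed by −0.04 (SE 0.11), −0.03 (SE 0.12) and −0.15 (SE 0.11). The 3 probe sets of Pgk1 differed by −0.05 to −0.03 and the 3 of Pgam1 by −0.16 to −0.15, so each set ran one way. In both genes, 2 of the 3 probe sets carried identical values on every array. Gapdh, which follows triose isomerase, is listed by 25 probe sets that also name Gapdh-like genes. Their differences lay between 0.04 and 0.08, but they cannot be told apart as reads of separate genes and were not tested.

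At the end of the path, Pklr, the pyruvate kinase of liver and red cells, had the widest spread of any member. It stood at 10.45, 9.96, 9.73 and 9.67 on the controls and at 9.30, 9.24, 10.12 and 10.29 with hydrogen water. Hydrogen water 1 and 2 lay below all controls, whereas hydrogen water 3 and 4 lay above 3 of them. The difference was −0.22 (SE 0.25, 95% interval −0.76 to 0.32). Slc2a2 had the same low and high arrays within the hydrogen water group, and control 1 was the highest array for both genes, a likeness noticed after the values were seen. Ldha, which interconverts pyruvate and lactate, lay between 13.00 and 13.34 on the controls and between 13.11 and 13.35 with hydrogen water, a difference of 0.02 (SE 0.11).

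**Figure D2:**
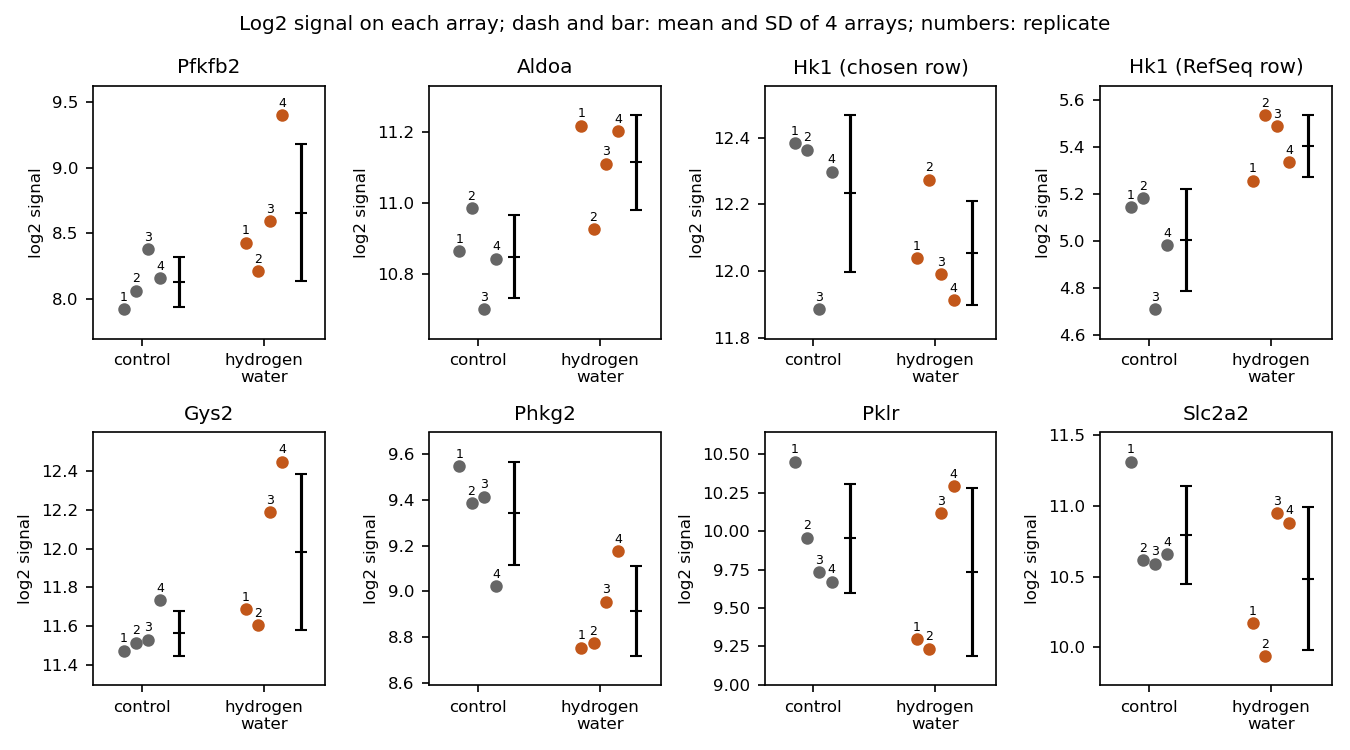
Log2 signal on each array for 7 members, Hk1 with both of its probe sets; points are arrays labelled by replicate number, the dash is the group mean and the bar its SD (n = 4), and each panel has its own axis, which does not start at 0. Pfkfb2 and Gys2 are highest on hydrogen water 4, and the probe set of Hk1 that lists its RefSeq transcripts is the one panel whose groups do not overlap.

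The gluconeogenic enzymes had the smallest differences of the roles, with a median size of 0.07 against 0.15 for the glycolytic and 0.14 for the glycogen members. Over all genes the median size was 0.10, and over genes above the median level 0.11. Of the 6 members 4 were higher and 2 lower with hydrogen water, 0 had an unadjusted p under 0.05, and every 95% interval lay within 0.5 of 0 on the log2 scale. Most genes had such an interval, 15684 of all 19938 and 7047 of the 9969 above the median level. The median difference of the 6 members was 0.03, or −0.01 with each array centred on its median. Pck1, the cytosolic phosphoenolpyruvate carboxykinase that commits oxaloacetate to glucose, stood at 13.60, 13.51, 13.33 and 13.51 on the controls and at 13.52, 13.25, 13.52 and 13.72 with hydrogen water. The hydrogen water group held both the lowest and the highest array. The difference was 0.01, with a 95% interval of −0.24 to 0.27. Pck2, the mitochondrial form, had the narrowest spread of any member. It stood at 6.71, 6.68, 6.56 and 6.64 on the controls and at 6.60, 6.48, 6.60 and 6.56 with hydrogen water, a difference of −0.09 (SE 0.09). Pcx, the mitochondrial carboxylase that makes oxaloacetate from pyruvate, stood at 12.26, 12.09, 11.79 and 12.04 and at 12.00, 11.67, 12.29 and 12.42. It had the widest spread of the 6, and again the lowest and the highest array were both in the hydrogen water group, with a difference of 0.05 (SE 0.16).

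Fbp1, the phosphatase that opposes phosphofructokinase, stood at 13.70, 13.51, 13.43 and 13.46 on the controls and at 13.34, 13.37, 13.59 and 13.79 with hydrogen water. Its group means were both 13.52, with a 95% interval of −0.27 to 0.26 for the difference. The last step in the endoplasmic reticulum is carried by G6pc and by Slc37a4, which brings in the substrate. G6pc is the catalytic subunit of the phosphatase that frees glucose from its phosphate. G6pc stood at 13.34, 13.71, 13.30 and 13.01 on the controls and at 13.41, 13.33, 13.52 and 13.64 with hydrogen water. The hydrogen water arrays lay inside the control range, and the difference was 0.13 (SE 0.14, 95% interval −0.17 to 0.44). Slc37a4 lay between 11.99 and 12.38 on the controls and between 12.24 and 12.62 with hydrogen water, a difference of 0.16 (SE 0.12).

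Glycogen genes held the member with the lowest p. Of the 11 members 5 were higher and 6 lower with hydrogen water, and their median difference was −0.06, or −0.10 with each array centred on its median. With single arrays left out the median ranged from −0.15 (without control 4) to 0.05 (without hydrogen water 1), that of the gluconeogenic members from −0.06 (without hydrogen water 4) to 0.14 (without hydrogen water 2) and that of the glycolytic members from −0.06 to 0.06 (without hydrogen water 4 and 2), so no role's median kept its sign. On the synthetic side, Ugp2 makes the activated glucose, Gyg primes the particle, Gys2 lengthens the chains and Gbe1 branches them. Gys2, the liver glycogen synthase, stood at 11.47, 11.51, 11.53 and 11.73 on the controls and at 11.69, 11.61, 12.19 and 12.45 with hydrogen water. Hydrogen water 3 and 4 lay above all controls, and hydrogen water 1 and 2 within the control range. The difference was 0.42 (SE 0.17, 95% interval 0.04 to 0.80, limma adjusted p = 0.687). Without hydrogen water 4 it was 0.26 (limma unadjusted p = 0.103). Gbe1 had the opposite sign. It lay between 10.20 and 10.84 on the controls and between 10.001 and 10.27 with hydrogen water, a difference of −0.31 (SE 0.14, limma adjusted p = 0.697). Control 2, at 10.20, fell inside the hydrogen water range. Ugp2 and Gyg differed by −0.28 (SE 0.15) and −0.14 (SE 0.12). Gsk3b, a kinase that inhibits glycogen synthase, differed by 0.09 (SE 0.15).

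Breakdown starts with Pygl, the liver glycogen phosphorylase. It stood at 11.25, 11.00, 10.95 and 10.83 on the controls and at 10.80, 10.59, 10.85 and 10.91 with hydrogen water. Control 1 was the highest array and hydrogen water 2 the lowest, with the remaining arrays close together. The difference was −0.22 (SE 0.12, 95% interval −0.48 to 0.04). Phosphorylase is switched on by phosphorylase kinase, whose catalytic subunit in liver is Phkg2 and whose regulatory subunits are Phka2 and Phkb. Phkg2 stood at 9.55, 9.38, 9.41 and 9.02 on the controls and at 8.75, 8.77, 8.95 and 9.18 with hydrogen water. Control 4 lay below hydrogen water 4, and the other 3 controls lay above all hydrogen water arrays. The means were 9.34 ± 0.23 (SD, n = 4) and 8.91 ± 0.20 (SD, n = 4), which gives −0.43 (SE 0.14, 95% interval −0.73 to −0.13, limma unadjusted p = 0.00889, adjusted p = 0.638). Leaving out any single array kept its unadjusted p under 0.05 (8 of 8), whereas this held in 4 of 8 for Pfkfb2 and in 3 of 8 for Aldoa and for Gys2. Phkg2 began from the lowest p of the members, and with single arrays left out its limma adjusted p was 0.477 or higher.

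The regulatory subunits of the same kinase had smaller differences. Phka2 lay between 8.22 and 8.83 on the controls and between 8.35 and 8.84 with hydrogen water, a difference of 0.02 (SE 0.15). Phkb differed by 0.09 (SE 0.11). Whether Phkg2 differs from its partners was not tested. Pgm1 and Pgm2, the phosphoglucomutases that link glycogen to the glucose phosphates, differed by 0.10 (SE 0.14) and −0.06 (SE 0.18). Their symbols have been exchanged between mouse genes in older annotation, and they were assigned by Entrez identifier. Pgm2 had the widest spread of the glycogen members, at 7.26, 7.75, 7.81 and 7.24 on the controls and 7.01, 7.46, 7.72 and 7.63 with hydrogen water. Phkb had the narrowest, at 8.16, 8.02, 8.23 and 7.92 and at 8.18, 7.99, 8.19 and 8.35. In both genes the ranges of the groups overlapped.

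Members differed in how widely the arrays of a group were spread. The within-group SD is the residual SD after removing the 2 group means. Its median was 0.20 for the glycolytic, 0.17 for the gluconeogenic and 0.23 for the glycogen members, against 0.18 over all genes and 0.19 over genes above the median level. Pklr had an SD of 0.46, wider than 98.3% of genes, followed by Slc2a2 at 0.43, Pfkfb3 at 0.40 and Pfkfb2 at 0.39. At the narrow end, Pck2 had an SD of 0.06, and 1.18% of genes had a smaller one. Hk2 was the narrowest glycolytic member, at 0.12, with 4.27, 4.57, 4.63 and 4.53 on the controls and 4.56, 4.63, 4.68 and 4.61 with hydrogen water. Apart from control 1 its arrays lay close together. Among the gluconeogenic members, Pcx had an SD of 0.27 and Pck1 one of 0.16.

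**Figure D3:**
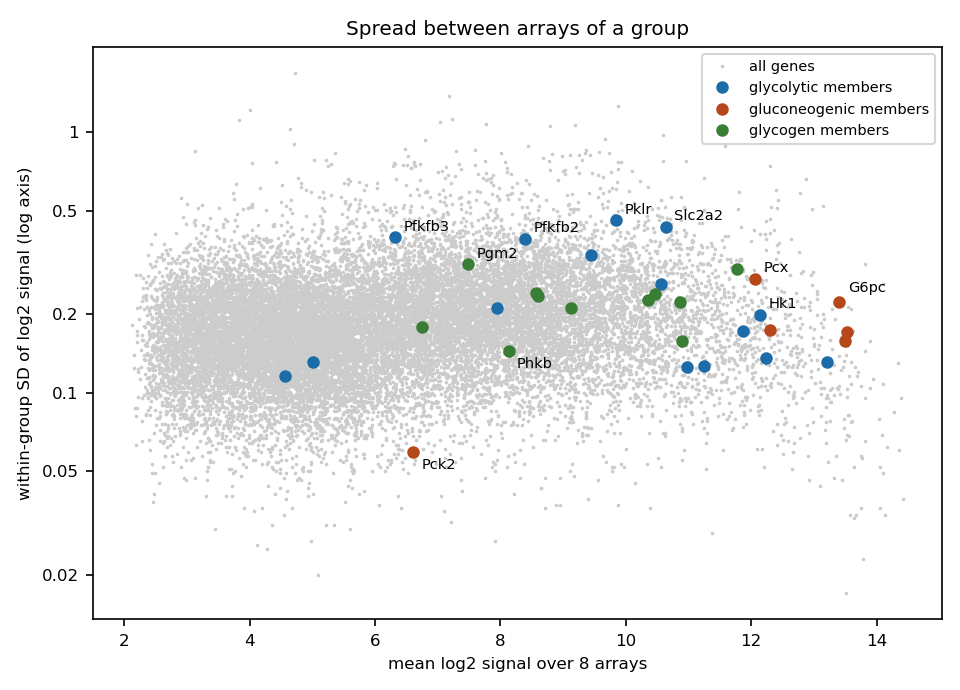
Within-group SD of the log2 signal (log axis) against the mean log2 signal over 8 arrays, for all 19938 genes in grey and the 32 members by role. Pklr, at an SD of 0.46, and Slc2a2, at 0.43, sit at the upper edge of the cloud, and Pck2, at 0.06, at the lower edge.

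Members of all roles tended to be high or low on the same arrays. Relative to each gene's own mean, 28 of the 32 members were above it on hydrogen water 4, 25 on control 1 and 24 on hydrogen water 3, but 3 on hydrogen water 2, 6 on control 4 and 8 on hydrogen water 1. Of all 19938 genes, between 9328 (control 1) and 10369 (control 4) were above their own mean on an array. No other set of genes of like level was set beside the members. The mean deviation of the glycolytic members was 0.14, 0.04, −0.11 and −0.09 on the controls and −0.10, −0.19, 0.10 and 0.19 with hydrogen water. That of the gluconeogenic members was 0.10, 0.05, −0.17 and −0.07 on the controls and −0.05, −0.17, 0.09 and 0.22 with hydrogen water. Both roles were thus low on control 3, where the glycogen members were high. The glycogen members deviated by 0.13, −0.05, 0.15 and −0.10 on the controls and by −0.19, −0.17, 0.03 and 0.19 with hydrogen water. Over all genes this deviation stayed between −0.01 and 0.01. The arrays have similar medians, which keeps that mean small, so it is no yardstick for a small set of genes. Hydrogen water 4 was the highest array for 14 of the 32 members and control 1 for 10, while control 3 and hydrogen water 2 were each the lowest for 8.

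**Figure D4:**
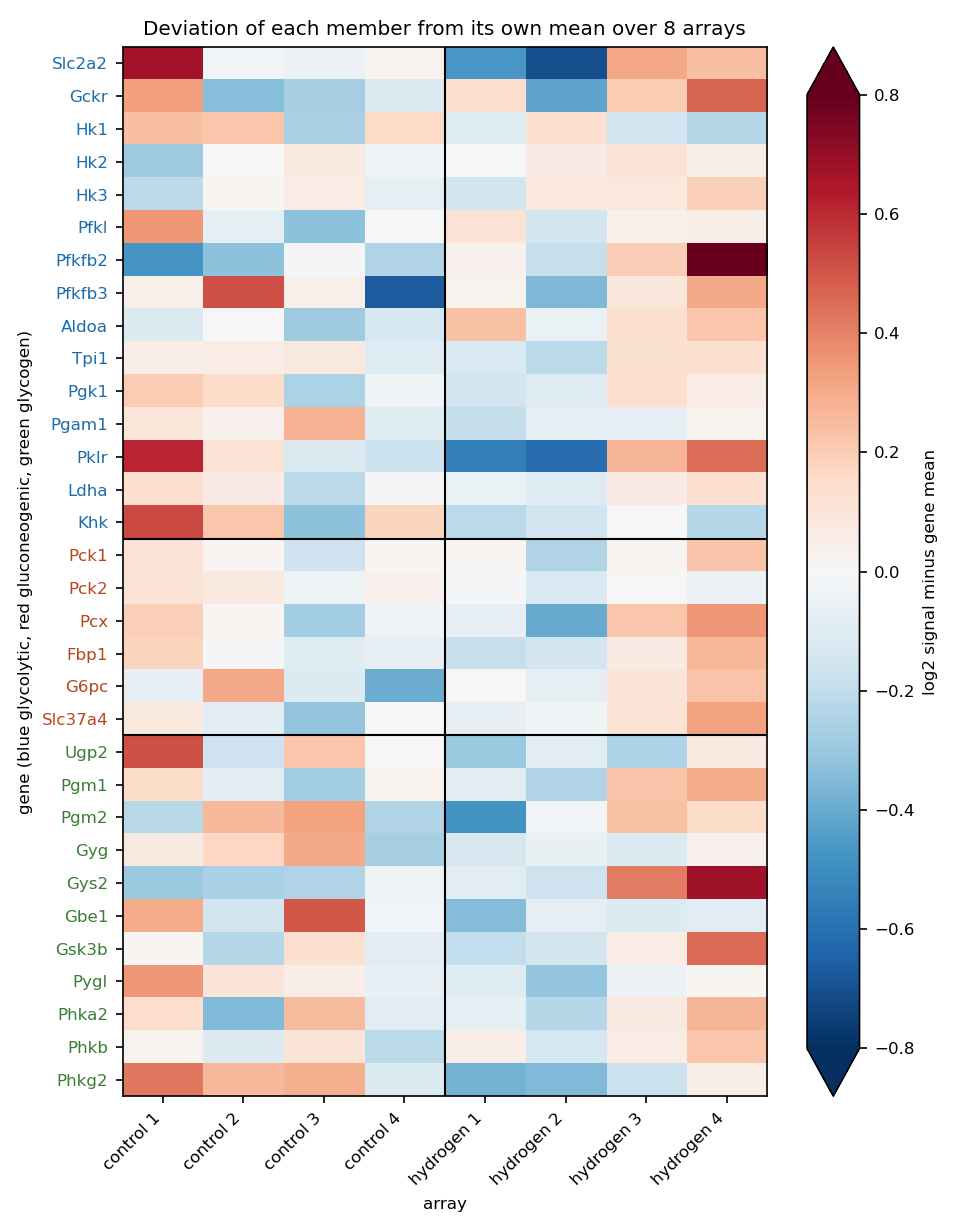
Log2 signal of each of the 32 members on each of the 8 arrays minus that gene's mean over the 8 arrays, with rows ordered by role and colour running from blue (lower) to red (higher), clipped at 0.8. Hydrogen water 4 and control 1 are mostly red and hydrogen water 2 mostly blue, with 28, 25 and 3 of the 32 members above their own mean. Of all 19938 genes 9513, 9328 and 9667 were above theirs on these arrays.

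Pairs of members with linked roles were compared across the 8 arrays, 3 in all. For Gckr and Pklr, Pearson's r was 0.64 (exact permutation p = 0.0927, adjusted over the 3 pairs 0.278) and Spearman's rho 0.74 (exact permutation p = 0.0458, adjusted 0.138). Without hydrogen water 2 and 4, the arrays farthest from the median of Gckr, r was 0.35, so its size depends on those arrays. On deviations from the group means r was 0.79 for this pair (permutation p = 0.0206, adjusted over the 3 pairs 0.0619). That p is approximate, because the permutation ran over all 8 arrays and not within the groups. Members of all roles tended to be high or low on the same arrays. Whether this r is particular to the pair was not tested. On the same deviations r was 0.37 for Pck1 and G6pc and 0.33 for Gys2 and Pygl. For Pck1 and G6pc r was 0.36 (exact permutation p = 0.379) and rho 0.40 (exact permutation p = 0.327), and r was 0.11 without hydrogen water 2 and 4. For Gys2 and Pygl r was −0.20 (exact permutation p = 0.583) and rho −0.52 (exact permutation p = 0.197). Without hydrogen water 3 and 4 the r of Gys2 and Pygl was −0.66. The adjusted p of r for these last 2 pairs was 0.568 and 0.583, and that of rho 0.327 and 0.295, by the exact permutation test. All tests were two-sided.

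Other genes of these paths were taken from 4 lists, of which 83 of 90 had a probe set naming them alone. The other genes of these lists are not analysed here. Of the 83 genes 0 passed the adjusted threshold of limma and 6 (7.23%) had an unadjusted p under 0.05, next to the 7.17% over the array. After centring of every array on its median 2 of the 83 did, Ppp1r3c and Trib1, against 8.01% over the array. With quantile normalization 8 of the 83 (9.64%) did, against 8.86% over the array. The counts by list that follow are for the values as deposited. Among 24 further genes of glycolysis and sugar uptake 0 had an unadjusted p under 0.05, 8 were higher and 16 lower, and the median difference was −0.07. Among 14 genes of gluconeogenesis and its precursors 1 did, the aspartate transaminase Got1, at 13.14 ± 0.19 (SD, n = 4) in controls and 13.45 ± 0.22 (SD, n = 4) with hydrogen water. Among 18 glycogen genes 2 did, each with groups that did not overlap. Phka1, the muscle form of the kinase subunit Phka2, stood at 6.74, 6.67, 6.49 and 6.69 on the controls and at 6.93, 6.76, 6.86 and 7.07 with hydrogen water (difference 0.26, SE 0.11). Ppp1r3c, which brings protein phosphatase 1 to glycogen, ranged from 8.01 to 9.001 on the controls and from 7.12 to 7.62 with hydrogen water. Its limma adjusted p was the lowest of the array (0.558), a value that it shared with other genes.

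Among 27 regulators of glucose genes 22 were higher with hydrogen water, with a median difference of 0.11, and 21 were higher under quantile normalization and with each array centred on its median. Over all genes 48.7% were higher with the values as deposited, 39.4% with quantile normalization and 37.9% with centring. Of the regulators 3 had an unadjusted p under 0.05, and 1, Trib1, with centring. Ppara, the fatty acid receptor of fasting, stood at 11.05, 10.97, 11.05 and 10.80 on the controls and at 11.13, 11.11, 11.26 and 11.67 with hydrogen water, without overlap. Trib1, a pseudokinase that promotes degradation of C/EBP factors, differed by 0.34 (SE 0.13). Sik1, a kinase that restrains the coactivators of CREB, differed by 0.66 (SE 0.30). The limma adjusted p of Ppara, Trib1 and Sik1 lay between 0.687 and 0.697, so none of the 3 passed.

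The arrays had a median log2 signal between 5.27 and 5.37 and correlations over genes between 0.988 and 0.995. Control 3 stood apart, with correlations of 0.988 to 0.990 with the other arrays and the lowest array weight by limma, 0.424. Among the remaining pairs control 2 and hydrogen water 4 were as low, at 0.989. Of 8 hepatocyte markers 7 were measured, and the mean signal of these 7 lay between 13.82 and 13.91 on the controls and between 13.87 and 13.88 with hydrogen water, so the tissue label was borne out. The 12 Kupffer cell markers were all higher in mean with hydrogen water (median difference 0.35), and 11 of 12 were so with centring. Of the 12, 4 had an unadjusted p under 0.05 (Clec4f, Csf1r, Cd163 and C1qc), against 7.17% of all genes, and 0 passed the adjusted threshold. Their mean signal lay between 6.34 and 6.89 on the controls and between 6.61 and 7.35 with hydrogen water, highest on hydrogen water 4, and 3 of the 12 lay below the median gene level. The 9 sinusoidal endothelial markers were likewise all higher (median difference 0.32), at 7.60 to 8.14 against 7.86 to 8.44, with 3 of 9 at an unadjusted p under 0.05 (Stab1, Stab2 and Pecam1) and 0 past the adjusted threshold. Hk1, Hk2, Hk3, Aldoa and Pfkfb3 are also expressed in such cells. The part of these cells in the values of Hk1, Aldoa, Pfkfb2 and Gys2 was not tested. Hydrogen water 4 was the highest array for 14 of the 32 members, and the endothelial markers were highest on hydrogen water 2 (8.44). In whole liver, more cells of a type and more RNA per cell cannot be told apart. Markers of skeletal muscle, where Aldoa is the main aldolase, lay between 5.04 and 5.37 on the controls and between 5.11 and 5.24 with hydrogen water, with 3 of 6 higher. The mean of 3 erythroid markers, of cells that also express Pklr, lay between 6.49 and 6.82 and between 6.44 and 6.96.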

How the data were processed

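The values are log2 signals as the authors deposited them, 1 for every probe set on every array. Per the submitters' processing notes they come from Affymetrix Expression Console. For its version, the build and the methods of background correction, normalization and summary, the answer is not given in the sources used here. The log2 scale was read from the values (1.40 to 14.78). Of 35556 probe sets 21789 name 1 gene, 1621 several, and 12146 are unnamed here. Symbols were updated by Entrez identifier through a RefSeq table (GRCm38.p6), where 19856 of 19938 genes matched. Testing used lmFit and eBayes of limma 3.58.1 under R 4.3.3 (2 groups, no covariate, two-sided, Benjamini-Hochberg over 19938 genes, threshold 0.05, 6 residual and 5.88 prior degrees of freedom), without a filter on level. The procedure was tested on simulated data. Intervals are 95%. The members, lists and alternatives were chosen with earlier results of these data known.

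All members were named. Values of every array were given for members at an unadjusted p under 0.05, for the widest and narrowest spread of each role and for 8 members listed whatever their values. Other pathway genes were named at an unadjusted p under 0.05 or where groups did not overlap. The alternatives were quantile normalization and median centring, a filter on dim genes, averaging all probe sets of a gene, admitting those with several symbols, a robust variance with trend, limma's array weights, a replicate block, each array left out, control 3 and hydrogen water 4 left out together, and, added after seeing the data, the Hk1 probe set of its RefSeq transcripts. The number of arrays limits the precision. Figures used matplotlib 3.10.9 (Python 3.11.15).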

Additional observations from a re-analysis of the deposited data

Results flagged for a closer look

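Within groups of 4 arrays, 3 values stood apart from the other 3 by Dixon's criterion at 95%. This was tested in 78 groups of named genes, and chance flags about 1 in 20. Slc2a2 was at 11.31 on control 1, against 10.59 to 10.66 on the other controls. Tpi1 was at 12.13 on control 4, against 12.29 to 12.31 on the other controls. Gbe1 was at 10.001 on hydrogen water 1, against 10.24 to 10.27 on the other hydrogen water arrays.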

How the results depend on the processing

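Of 684 recomputed differences of 38 named genes 45 changed sign, in 13 genes whose difference was at most 0.18 in size, and 25 genes kept their sign under every alternative. Members past the adjusted threshold stayed at 0 under every alternative. With the mean over probe sets Hk1 differed by 0.11, and with the probe set of its RefSeq transcripts by 0.40. Quantile normalization turned Pfkfb3 (−0.014) and Pgk1 (0.021). Centring each array on its median turned Pfkl (−0.0088), Pfkfb3 (−0.0066), Ldha (−0.018), Pck1 (−0.026) and Phka2 (−0.018). Array weights turned Pfkl (−0.0033), Pfkfb3 (−0.013), Ldha (−0.021) and Pck1 (−0.016). Without control 3 and hydrogen water 4 the differences were −0.085 for Pfkl, −0.045 for Pfkfb3, −0.090 for Ldha, −0.11 for Pck1, −0.14 for Pcx and −0.063 for Pgm1, and the gluconeogenic median was −0.11.

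Members whose groups did not overlap numbered 1 with quantile normalization, 1 with the other Hk1 probe set, 5 without control 3 and hydrogen water 4, and 0 to 5 with any single array left out. Fewer arrays make overlap less likely for any gene. The share over all genes is not given for quantile normalization or for the settings with arrays left out, so those counts are no result about the members. Members at an unadjusted p under 0.05 numbered 2 to 5 with single arrays left out, where 4.8% to 9.22% of all genes had such a p. Genes past the adjusted threshold of limma numbered 0 to 1 with single arrays left out (Sucnr1 without control 2, Aqp8 without control 3) and 3 without control 3 and hydrogen water 4, none of them a member. With single arrays left out the difference ranged from −0.074 to 0.15 for Pfkl, −0.18 to 0.21 for Pfkfb3, −0.093 to 0.021 for Tpi1, −0.12 to 0.030 for Pgk1, −0.048 to 0.066 for Ldha, −0.060 to 0.096 for Pck1, −0.056 to 0.19 for Pcx, −0.093 to 0.056 for Fbp1, −0.15 to 0.089 for Pgm2, −0.052 to 0.16 for Gsk3b and −0.094 to 0.11 for Phka2. Among genes that kept their sign it ranged from −0.40 to −0.05 for Pklr and −0.46 to −0.13 for Slc2a2 (both smallest without hydrogen water 2), 0.025 to 0.26 for G6pc (smallest without control 4) and 0.07 to 0.37 for Gckr (smallest without hydrogen water 4). On deviations from group means the correlation of Gys2 and Pygl was 0.33. The cause of these changes was not tested.

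The deviations of same-numbered arrays of the groups had correlations of −0.16 to 0.06, and those of differently numbered arrays −0.17 to 0.18. These few values cannot decide whether the number pairs the arrays. With the replicate number as a block 0 genes passed the adjusted threshold, and 1313 genes and 3 members had an unadjusted p under 0.05 in limma.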
